A study of Mus musculus with 24 samples.

Results

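Double-strand break repair and damage signalling was followed here through 38 genes in the skin and bone of mice given proton radiotherapy. The genes were chosen by symbol: every row whose identifier GENCODE M21 assigns to 1 of the 38 listed symbols was taken, and all 38 were found among the 55471 gene identifiers. The rule itself uses no measured value, though the symbols were listed with earlier results of these data known. They fall into 9 genes of break sensing and damage signalling, 12 of homologous recombination, 7 of classical end joining, 6 of the Fanconi anaemia pathway, and 4 of the polymerase theta, PARP and base excision routes. The groups were F-PRT, S-PRT and Untreated, each in bone and in skin, with 4 biological replicates per group and 24 libraries in all. F-PRT is read here as FLASH proton radiotherapy, given at an ultra-high dose rate, and S-PRT as standard proton radiotherapy, given at a conventional dose rate. All animals were female and aged 10 weeks, and the series is titled for a sarcoma model, while the libraries were made from skin and bone. Strain, dose, the time between irradiation and sampling, library strand and any pooling of animals are not in the labels. They call the replicates biological but name no animal, so p-values measure the spread between these libraries.

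Both strands of DNA are severed at a double-strand break. The MRE11-RAD50-NBN complex and the Ku heterodimer bind the ends, and the kinases ATM, ATR and DNA-PK pass the signal to checkpoint kinases and to p53. In classical end joining Ku, DNA-PK, Artemis, XLF, XRCC4 and ligase IV rejoin ends throughout the cell cycle. In homologous recombination the ends are resected and the sister chromatid is copied, which restricts this route largely to dividing cells after replication, and the Fanconi anaemia proteins feed DNA crosslinks into it. Marrow inside bone holds many cycling blood cell precursors, whereas most cells of skin outside the basal layer and the hair follicle do not divide.

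Levels were read from RSEM expected counts, 10.91 to 17.36 megacounts per bone library and 16.42 to 22.09 megacounts per skin library. All CPM values are counts relative to library size as edgeR's cpm function gives them, with library sizes scaled by TMM over the 24 libraries, and a gene was called changed where the adjusted p of edgeR's quasi-likelihood test (Benjamini-Hochberg over all genes tested) was under 0.05. The tissue labels matched their markers: the summed level of 10 osteoblast genes was 11600 to 30400 CPM in bone and 93.7 to 1450 CPM in skin, where Ibsp was at 0, and 10 basal keratinocyte genes summed to 296 to 444 CPM in bone and 9020 to 33900 CPM in skin. As a check of irradiation, Cdkn1a, the p53-driven inhibitor of cyclin-dependent kinases, averaged 126 ± 30.5 CPM in F-PRT bone, 127 ± 15.4 in S-PRT bone and 16.0 ± 1.8 in Untreated bone (SD, n = 4 each). In skin it averaged 337 ± 13.1 CPM after F-PRT, 334 ± 14.2 after S-PRT and 181 ± 75.2 in Untreated skin, where replicate 1 alone had 294 CPM. Several libraries stood apart. In skin, S-PRT replicate 4 was the highest of its group for 31 of the 38 genes and held 33900 CPM of the basal keratinocyte genes, against 10100 to 12200 CPM in the other S-PRT skin libraries, and 10.1 CPM of 10 endothelial genes, against 218 to 238 CPM. Results were also computed without skin S-PRT 4, skin Untreated 1, bone F-PRT 2, bone F-PRT 3 and bone Untreated 1, called below the libraries in doubt. That set was named by hand, with no numerical rule applied here. In bulk tissue, fewer cells of a type and less RNA per cell cannot be told apart.

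In the unirradiated tissues the 38 genes were expressed at low to moderate levels, more strongly in bone. On the authors' TPM scale, which is per transcript length, the mean over the 4 Untreated libraries ran from 1.05 to 17.6 TPM in bone, with a median over the 38 genes of 6.76 TPM, and from 0.39 to 7.65 TPM in skin, with a median of 2.46 TPM. Untreated bone was led by Xrcc6, which encodes the Ku70 subunit of the end-binding heterodimer, at 17.6 ± 4.34 TPM (SD, n = 4), followed by the helicase gene Wrn at 15.3 TPM, the mediator Mdc1 at 14.4, the break sensor Parp1 at 13.3 and the helicase gene Blm at 12.9. The lowest were the ligase gene Lig4 at 2.16 TPM, Rad51c at 1.62 and Nhej1, which encodes the end-joining factor XLF, at 1.05. Untreated skin was led by Xrcc5, which encodes the partner subunit Ku80, at 7.65 ± 2.44 TPM, then Nbn at 7.48 and Xrcc6 at 6.83, and ended with Nhej1 at 0.555 and the polymerase theta gene Polq at 0.39 ± 0.0956. Between neighbours in either order the library values overlapped in 37 of 37 pairs, so only distant positions were separated.

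**Figure D1:**
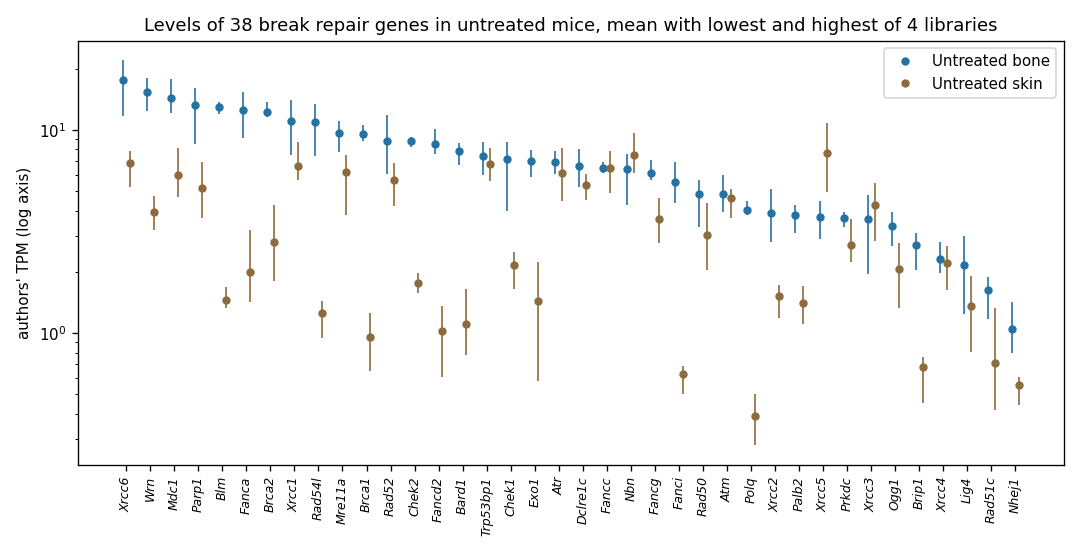
Level of the 38 genes in the 4 Untreated bone and the 4 Untreated skin libraries, as the authors' TPM on a log axis; points are means and lines run from the lowest to the highest library. Most genes lie higher in bone, up to Xrcc6 at a mean of 17.6 TPM, while Polq in skin lies lowest at a mean of 0.39 TPM.

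Against Untreated skin, Untreated bone had higher counts for 29 of the 38 genes and lower counts for 2, where 32.6% of all genes were higher and 32.6% lower. Higher were 4 of the 4 polymerase theta, PARP and base excision genes, 11 of the 12 genes of homologous recombination, with 1 lower, and 5 of the 6 of the Fanconi anaemia pathway. Of the 9 sensing genes 5 were higher, and of the 7 end-joining genes 4 were higher and 1 lower. Brca1, a ubiquitin ligase that steers breaks into recombination, had 89.3, 87.1, 76.4 and 69.7 CPM in Untreated bone, against 10.2, 6.89, 8.13 and 6.52 CPM in Untreated skin. The 2 ranges lie far apart, and the log2 difference was 3.34 ± 0.23 (SE; edgeR adjusted p = 2.6e-11).

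The other genes of smallest p were all higher in Untreated bone. Blm, which dissolves recombination intermediates, averaged 71.3 ± 9.44 CPM in bone and 8.5 ± 0.678 CPM in skin (log2 3.07). Polq, the polymerase of microhomology-mediated joining, averaged 47.7 ± 8.49 CPM in bone and 4.01 ± 1.11 CPM in skin (log2 3.57), the largest difference of the 38. The log2 differences of the remaining recombination genes were 1.92 for Wrn, 2.72 for the motor protein gene Rad54l, 2.79 for Brca1's partner Bard1, 2.56 for the recombination mediator Brca2 and 1.9 for Palb2, which links BRCA1 to BRCA2. Among Fanconi genes they were 2.86 for the core complex subunit Fanca, 2.89 for Fancd2 and 2.95 for Fanci, the pair that is monoubiquitinated at crosslinks, and for the checkpoint kinase gene Chek2 the difference was 2.4. The largest edgeR adjusted p among these was 1.69e-09. The 2 genes lower in bone were Xrcc5 (14.3 ± 0.488 CPM in bone, 30.5 ± 4.69 CPM in skin, log2 -1.09, adjusted p = 1e-05) and the recombination gene Xrcc3 (11.1 ± 1.48 and 14.6 ± 1.92 CPM, log2 -0.39, adjusted p = 0.0121). The kinase genes Atm (0.10) and Atr (0.14) and the mediator Trp53bp1 (0.05) differed little on the log2 scale and did not pass.

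The list of 30 mitosis genes was higher in Untreated bone than in Untreated skin for 30 of 30 genes, with a median log2 difference of 2.68, and a fit with the mean level of that list as a covariate called 7 of the 38 genes higher and 3 lower, where 17.4% of all genes were higher and 18.3% lower. The mean level of the list was 6.52 to 6.71 log2 CPM in Untreated bone and 3.86 to 4.3 in Untreated skin. These ranges lie apart, so that fit cannot separate dividing cells from tissue, and the part of dividing cells in the calls was not tested. Leaving out skin Untreated 1 or bone Untreated 1 ended the call for Xrcc3 (adjusted p 0.0518 to 0.0552), while the 12 genes of smallest p and Xrcc5 kept theirs in all 24 fits that each left out 1 library.

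Irradiated bone had lower levels of a subset of the break repair genes and a higher level of 1, on the TMM scale that holds the bulk of genes level. In F-PRT bone 12 of 38 fell and 1 rose against Untreated bone, beside 17.2% of all genes that fell and 15.5% that rose (32.7% in all). In S-PRT bone 10 fell and 1 rose, beside 15.2% and 13.3% of all genes (28.5% in all). Of the 38, 31.6% and 26.3% fell and 2.63% rose in each, which is a description with no test, and these shares depended on the setting. With total count scaling 3 fell after each beam, beside 10.1% and 8.85% of all genes, and 2 and 1 rose, beside 26.9% and 23.7%. On the authors' TPM none of the 38 fell, beside 2.81% and 2.85% of all genes, and 16 and 15 rose, beside 60.8% and 55.8%. The median log2 change of the 38 was -0.29 after F-PRT and -0.25 after S-PRT, where the median of all genes was -0.01 in each. Both comparisons use the same 4 Untreated libraries, so they are not independent of each other.

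By role, the Fanconi anaemia genes fell most often, 5 of 6 after F-PRT and 3 of 6 after S-PRT. Of the 7 end-joining genes 3 fell and 1 rose after each beam. Of the 12 recombination genes 3 fell after F-PRT and 4 after S-PRT, 1 of the 9 sensing genes fell after F-PRT and none after S-PRT, and none of the 4 polymerase theta, PARP and base excision genes passed after either. Without the libraries in doubt the same 6 genes were called in each comparison: Lig4, Xrcc6, Rad52, Fanca and Brip1 fell and Xrcc5 rose. In that fit 11.5% of all genes fell and 12.4% rose after F-PRT, and 15.1% fell and 14.8% rose after S-PRT, so that the 5 of 38 that fell were near the share of all genes. Leaving out 1 library moved the count of 13 after F-PRT to between 6 and 16, with the lowest counts without F-PRT 2 (6), F-PRT 4 (6), F-PRT 3 (7), Untreated 2 (7) and Untreated 1 (8). It moved the count of 11 after S-PRT to between 4 and 13, with the lowest without S-PRT 1 (4), S-PRT 4 (5), and Untreated 1, Untreated 2 or F-PRT 2 (6 each), then Untreated 3 or 4 (7 each).

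**Figure D2:**
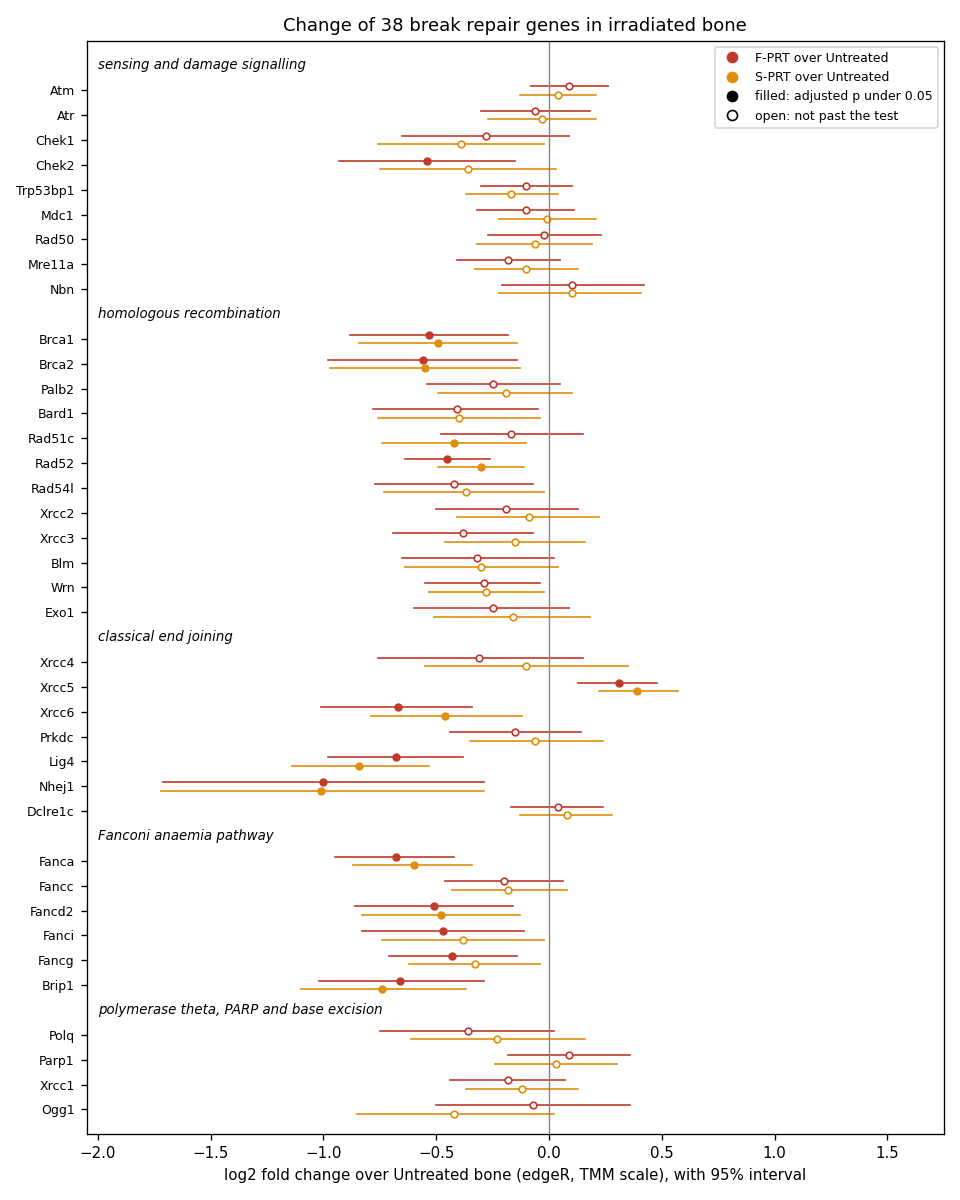
Log2 fold change of each of the 38 genes over Untreated bone, after F-PRT and after S-PRT, with 95% intervals from edgeR on the TMM scale; filled points passed the test. Xrcc5 alone lies right of 0 among the filled points (0.31 and 0.39), and Nhej1 lies lowest (-1.0 and -1.01) with the widest interval; on the authors' TPM scale, where the median of all genes is 0.69 and 0.62 higher, Xrcc5 still lies above 0 but most of the falls change sign.

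These directions are relative to the other genes. On the authors' TPM the median of all genes tested was 0.69 higher on the log2 scale in F-PRT bone and 0.62 higher in S-PRT bone than in Untreated bone, and 95.6% and 95.1% of called genes were higher, against 47.5% and 46.7% on the TMM scale. With total count scaling the medians were 0.19 and 0.18 and the shares 72.7% and 72.8%. Measured against the median of all genes on TPM, the 13 genes called after F-PRT and the 11 called after S-PRT all lay on the same side as on the TMM scale, while the raw TPM change kept its sign for 5 of 13 and 5 of 11. The library mean effective transcript length, an RSEM value that enters TPM, was 876 to 968 bases in F-PRT bone, 863 to 910 in S-PRT bone and 535 to 723 in Untreated bone. Its part in the result was not tested.

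The start regions of the 6 genes called after both beams also without the libraries in doubt are printed to show what sequence lies there. They come from RefSeq on GRCm38.p6, 250 bases before to 50 bases after the annotated start, and 31 of the 38 genes had an entry. Capitals mark matches, on either strand, to an E2F-type word (TTTCCCGC, TTTGGCGC, TTTCGCGC or TTTGCCGC) or to CCAAT, which reads ATTGG on the other strand. Lig4, at chr8:9977631-9977930 on the minus strand, had no match. Another RefSeq start region of Lig4, at chr8:9976262-9976561 on the minus strand, also had no match and is not printed. Xrcc6, at chr15:82016119-82016418 on the plus strand, had 1 E2F-type word and 1 CCAAT box. Xrcc5, at chr1:72307171-72307470 on the plus strand, had 1 CCAAT box. Fanca, at chr8:123318527-123318826 on the minus strand, had 2 CCAAT boxes. Rad52, at chr6:119902448-119902747 on the plus strand, had no match, and Brip1, at chr11:86201144-86201443 on the minus strand, had 3 CCAAT boxes.
Lig4: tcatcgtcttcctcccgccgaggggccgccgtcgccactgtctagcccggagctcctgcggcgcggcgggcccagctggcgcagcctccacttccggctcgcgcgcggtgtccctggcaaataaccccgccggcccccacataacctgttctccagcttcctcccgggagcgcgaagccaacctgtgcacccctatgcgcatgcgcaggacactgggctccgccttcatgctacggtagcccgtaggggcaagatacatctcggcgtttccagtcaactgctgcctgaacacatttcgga
Xrcc6: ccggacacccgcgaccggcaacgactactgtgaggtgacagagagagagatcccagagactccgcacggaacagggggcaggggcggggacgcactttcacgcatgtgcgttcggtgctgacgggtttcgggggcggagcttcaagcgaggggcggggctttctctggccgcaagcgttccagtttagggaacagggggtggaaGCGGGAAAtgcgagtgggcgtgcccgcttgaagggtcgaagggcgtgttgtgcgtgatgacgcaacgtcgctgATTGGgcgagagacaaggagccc
Xrcc5: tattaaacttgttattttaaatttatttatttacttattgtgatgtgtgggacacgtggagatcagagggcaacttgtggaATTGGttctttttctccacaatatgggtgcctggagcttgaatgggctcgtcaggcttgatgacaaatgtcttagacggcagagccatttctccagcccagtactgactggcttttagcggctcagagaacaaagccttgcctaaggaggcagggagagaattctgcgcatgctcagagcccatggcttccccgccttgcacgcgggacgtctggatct
Fanca: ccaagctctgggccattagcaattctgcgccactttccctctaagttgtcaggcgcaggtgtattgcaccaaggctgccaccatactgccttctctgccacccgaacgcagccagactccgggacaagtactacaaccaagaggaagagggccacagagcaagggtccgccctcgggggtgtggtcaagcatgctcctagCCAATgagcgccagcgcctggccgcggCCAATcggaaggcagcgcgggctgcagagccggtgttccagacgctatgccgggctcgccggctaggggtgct
Rad52: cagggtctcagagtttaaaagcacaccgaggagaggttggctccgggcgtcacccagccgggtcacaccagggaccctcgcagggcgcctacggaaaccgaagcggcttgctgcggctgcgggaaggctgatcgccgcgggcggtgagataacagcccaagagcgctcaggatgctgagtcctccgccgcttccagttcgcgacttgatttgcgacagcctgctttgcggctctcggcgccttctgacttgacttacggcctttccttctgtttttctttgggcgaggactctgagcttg
Brip1: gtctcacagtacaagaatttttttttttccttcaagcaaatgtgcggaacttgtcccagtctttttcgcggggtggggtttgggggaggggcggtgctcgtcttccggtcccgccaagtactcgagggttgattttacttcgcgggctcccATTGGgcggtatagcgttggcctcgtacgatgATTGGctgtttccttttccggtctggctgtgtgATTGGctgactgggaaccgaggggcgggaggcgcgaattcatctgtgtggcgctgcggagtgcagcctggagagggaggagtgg

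An E2F-type word, the letters to which the cell cycle transcription factors of the E2F family bind, stood in 7 of the 31 genes (22.6%), against 704 of the 27025 genes with a RefSeq promoter (2.6%). It stood in 5 of the 12 genes with an entry that fell in bone after F-PRT, S-PRT or both. These were Brca2, Chek2, Fancg, Rad51c and Xrcc6, of which Chek2 and Fancg were called only after F-PRT and Rad51c only after S-PRT. Of the 19 others it stood in 2 (Bard1 and Mdc1). Among Lig4, Xrcc6, Rad52, Fanca and Brip1, which also fell without the libraries in doubt, only Xrcc6 had such a word. CCAAT stood in 17 of the 31 genes (54.8%) and in 41.1% of all genes. Another motif searched, TTTGAA or TTCGAA, the core letters of the cell cycle homology region, stood in 3 of the 31 (9.68%) and in 21.7% of all genes. These split the other way: CCAAT stood in 5 of the 12 that fell and 12 of the 19 others, and the last motif in 0 of the 12 and 3 of the 19. With so few genes the splits are descriptions. A match is a string of letters and was not tied to binding of any factor.

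Among the break sensing and signalling genes, Chek2, the kinase that ATM activates at breaks, fell after F-PRT. It had 19.3, 16.2, 15.6 and 12.8 CPM in F-PRT bone, 15.7, 19.3, 22.4 and 14.3 CPM in S-PRT bone, and 30.2, 22.9, 19.5 and 18.9 CPM in Untreated bone. The lowest Untreated libraries lie within the ranges of both irradiated groups. The log2 change was -0.54 ± 0.18 after F-PRT (edgeR adjusted p = 0.0367), and after S-PRT it was -0.36 (adjusted p = 0.156), and on raw TPM the F-PRT change was 0.31. Leaving out F-PRT 2, F-PRT 3, F-PRT 4, Untreated 1 or Untreated 2 ended the call after F-PRT (adjusted p 0.0502 to 0.126). The apical kinase genes did not pass on the TMM scale. On raw TPM 7 of the 9 sensing genes after F-PRT and 6 after S-PRT were called higher, beside 60.8% and 55.8% of all genes. Among them was Atm (0.69 and 0.57, limma adjusted p = 0.00238 and 0.00809), where the median of all genes was 0.69 and 0.62. Atm had 60.8, 60.8, 58.7 and 63.8 CPM in F-PRT bone, 55.0, 61.0, 61.2 and 56.7 in S-PRT bone and 54.9, 62.0, 57.7 and 51.3 in Untreated bone, with log2 changes of 0.09 (95% interval -0.08 to 0.26) and 0.04 (-0.13 to 0.21). These libraries overlap throughout. The replication stress kinase gene Chek1 averaged 14.1 ± 1.76 CPM after F-PRT, 12.9 ± 3.57 after S-PRT and 16.8 ± 1.54 in Untreated bone (log2 -0.28 and -0.39, adjusted p = 0.235 and 0.111). The genes of the end-binding complex, Mre11a, Rad50 and Nbn, and Atr, Mdc1 and Trp53bp1 ranged from -0.18 to 0.10 across both comparisons and did not pass.

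In homologous recombination the fall of smallest p after either beam was that of Rad52, whose product anneals single strands. Rad52 had 13.2, 11.5, 12.4 and 12.2 CPM in F-PRT bone, 12.9, 13.3, 14.6 and 13.6 CPM in S-PRT bone and 16.0, 16.2, 16.5 and 17.4 CPM in Untreated bone. Every irradiated library lay under every Untreated one, and the log2 changes were -0.45 ± 0.09 after F-PRT (adjusted p = 0.00171) and -0.30 ± 0.09 after S-PRT (adjusted p = 0.0202). The first held whichever of the 12 libraries was left out, and the S-PRT call was lost without S-PRT 1, S-PRT 2 or Untreated 4 (adjusted p 0.0515 to 0.0577). On raw TPM the changes were 0.20 and 0.28, above 0 but under the median of all genes.

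Brca1 had 73.7, 58.7, 53.5 and 42.3 CPM in F-PRT bone, 55.7, 62.0, 69.5 and 45.4 CPM in S-PRT bone and 89.3, 87.1, 76.4 and 69.7 CPM in Untreated bone. The highest F-PRT library exceeded the lowest Untreated one, and the log2 changes were -0.53 ± 0.16 (adjusted p = 0.0244) and -0.49 ± 0.16 (adjusted p = 0.0388). Brca2 had 89.2, 77.9, 79.8 and 62.1 CPM in F-PRT bone, 66.4, 92.0, 95.7 and 53.6 CPM in S-PRT bone and 135, 130, 91.1 and 91.4 CPM in Untreated bone. The F-PRT libraries lay below all Untreated ones and the S-PRT libraries overlapped them, with log2 changes of -0.56 ± 0.19 (adjusted p = 0.0415) and -0.55 ± 0.19 (adjusted p = 0.048). Rad51c, another recombination gene, fell after S-PRT, with 3.58, 4.07, 4.91 and 3.82 CPM against 4.91, 6.0, 5.49 and 5.33 CPM in Untreated bone (log2 -0.42 ± 0.15, adjusted p = 0.0469), and had 5.56, 4.93, 4.72 and 4.48 CPM in F-PRT bone (-0.17, adjusted p = 0.408). The S-PRT and Untreated ranges met at 4.91 CPM, and the call was lost in 11 of 12 fits without 1 library (adjusted p 0.0539 to 0.122), being kept only without S-PRT 3.

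On raw TPM Brca1 changed by 0.15 and 0.17, Brca2 by 0.27 and 0.10, and Rad51c after S-PRT by 0.21, each under the median of all genes. The Brca1 and Brca2 calls also depended on single libraries. After F-PRT both were lost without F-PRT 2, 3 or 4 or Untreated 1 or 2 (adjusted p up to 0.0745 for Brca1 and 0.12 for Brca2). After S-PRT Brca1 missed the threshold when S-PRT 1, 2 or 4, F-PRT 2 or Untreated 1, 2 or 3 was left out, and Brca2 when S-PRT 1 or 4, F-PRT 1, 2 or 3 or Untreated 1 or 2 was left out (adjusted p 0.0522 to 0.116 and 0.057 to 0.138). Bard1, Rad54l, Xrcc3, Wrn, Blm, Exo1, Palb2 and Xrcc2 had changes of -0.42 to -0.19 after F-PRT and -0.40 to -0.09 after S-PRT and did not pass. All 12 recombination genes had a log2 change under 0 after either beam on the TMM scale.

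In classical end joining the calls went in both directions. Lig4, whose product with XRCC4 seals the joined ends, had 7.07, 8.12, 7.9 and 9.39 CPM in F-PRT bone, 6.77, 6.75, 7.75 and 7.64 CPM in S-PRT bone and 9.61, 13.6, 14.8 and 12.9 CPM in Untreated bone. The irradiated and Untreated libraries did not overlap, and the log2 changes were -0.68 ± 0.14 after F-PRT (adjusted p = 0.00243) and -0.84 ± 0.14 after S-PRT (adjusted p = 0.000704). On raw TPM they were -0.01 and -0.12. Xrcc4, the gene for its partner, averaged 4.36 ± 0.388, 5.0 ± 1.07 and 5.33 ± 1.31 CPM in F-PRT, S-PRT and Untreated bone and did not pass (log2 -0.31 and -0.10).

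The Ku subunits moved apart. Xrcc5 (Ku80) had 19.8, 17.2, 17.3 and 18.0 CPM in F-PRT bone, 19.2, 18.8, 19.7 and 18.3 CPM in S-PRT bone and 14.3, 14.8, 14.6 and 13.7 CPM in Untreated bone. Every irradiated library lay above every Untreated one, and the log2 changes were 0.31 ± 0.08 (adjusted p = 0.0106) and 0.39 ± 0.08 (adjusted p = 0.00297). Xrcc6 (Ku70) had 20.9, 15.8, 15.7 and 17.9 CPM in F-PRT bone, 20.5, 21.4, 22.5 and 16.8 CPM in S-PRT bone and 18.9, 33.3, 28.2 and 29.8 CPM in Untreated bone. Untreated replicate 1 lay within the irradiated range and the other 3 Untreated libraries above it, and the log2 changes were -0.67 ± 0.15 (adjusted p = 0.0048) and -0.46 ± 0.15 (adjusted p = 0.0404). On raw TPM Xrcc5 changed by 1.03 and 1.04, and Xrcc6 by -0.38 after F-PRT but 0.09 after S-PRT. The abundance-weighted transcript length of Xrcc6, another RSEM value, averaged 1513 ± 162 bases in F-PRT bone, 1238 ± 153 in S-PRT bone and 1141 ± 150 in Untreated bone. Its log2 changes, 0.41 and 0.12, did not pass (limma adjusted p = 0.24 and 0.855). The part of length in the TPM values of Xrcc6 was not tested. The Xrcc5 calls after both beams, the Lig4 calls after both and the Xrcc6 call after F-PRT held in all 12 fits that left out 1 library. The S-PRT call of Xrcc6 was lost when S-PRT 1, 2 or 4, F-PRT 4 or Untreated 2, 3 or 4 was left out (adjusted p 0.0546 to 0.133). In the GENCODE M21 annotation 7.7% of the exonic bases of Xrcc6 lie within exons of Desi1 on the other strand.

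Nhej1 was near the lower limit of the data, with 0.695, 0.696, 1.18 and 0.484 CPM in F-PRT bone, 0.615, 0.918, 0.888 and 0.616 CPM in S-PRT bone and 1.94, 1.2, 1.09 and 1.86 CPM in Untreated bone. F-PRT replicate 3 overlapped the Untreated libraries, and the log2 changes were -1.0 ± 0.33 (adjusted p = 0.0328) and -1.01 ± 0.33 (adjusted p = 0.0366). The F-PRT call was lost without F-PRT 1, 2 or 4 or Untreated 1 or 4, and the S-PRT call when S-PRT 1, 3 or 4, F-PRT 2 or Untreated 1 or 4 was left out (adjusted p 0.0764 to 0.0974 and 0.0504 to 0.106). Prkdc, the catalytic subunit of DNA-PK, had 72.0, 63.6, 61.4 and 64.3 CPM in F-PRT bone, 58.3, 83.5, 75.1 and 59.3 in S-PRT bone and 81.4, 78.5, 63.2 and 61.3 in Untreated bone. These overlap (log2 -0.15 and -0.06, adjusted p = 0.432 and 0.793), as did the values of the Artemis nuclease gene Dclre1c (0.04 and 0.08).

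**Figure D3:**
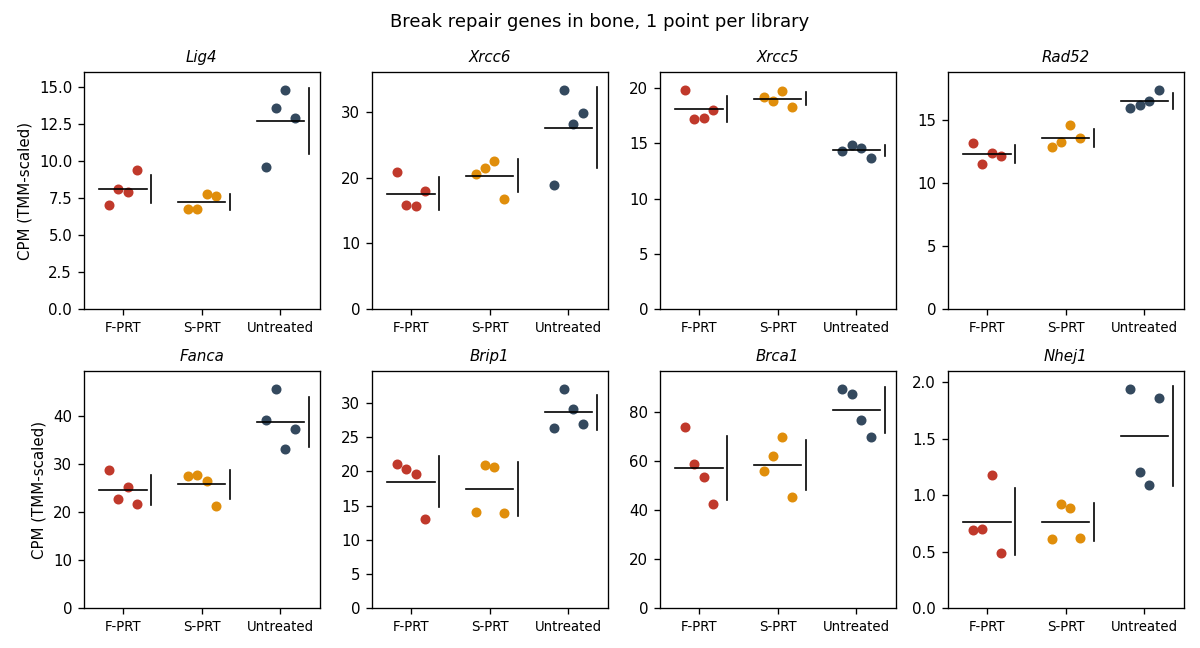
CPM (TMM-scaled) of 8 genes in bone, 1 point per library, with the group mean as a line and the SD as a bar, for F-PRT, S-PRT and Untreated. Lig4, Rad52, Fanca and Brip1 separate from the Untreated libraries downwards, Xrcc5 separates upwards (17.2 to 19.8 against 13.7 to 14.8 CPM), and Xrcc6, Brca1 and Nhej1 overlap; on raw TPM the Rad52 and Brca1 changes lie above 0.

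In the Fanconi anaemia pathway Fanca, a subunit of the core ubiquitin ligase complex, fell after both beams. Fanca had 28.8, 22.8, 25.2 and 21.6 CPM in F-PRT bone, 27.6, 27.8, 26.4 and 21.3 CPM in S-PRT bone and 39.1, 45.7, 33.1 and 37.4 CPM in Untreated bone. No irradiated library reached the lowest Untreated one, and the log2 changes were -0.68 ± 0.12 (adjusted p = 0.000994) and -0.60 ± 0.12 (adjusted p = 0.00262). Of its exonic bases 10.5% lie within exons of Zfp276 on the other strand, so with the library strand unstated some of its reads may belong to that gene. Brip1, the helicase gene also called FANCJ, had 21.1, 20.3, 19.6 and 13.0 CPM in F-PRT bone, 14.1, 20.9, 20.7 and 13.9 CPM in S-PRT bone and 26.4, 32.1, 29.2 and 27.0 CPM in Untreated bone. The groups did not overlap, and the log2 changes were -0.66 ± 0.17 (adjusted p = 0.00994) and -0.74 ± 0.17 (adjusted p = 0.00607). The calls of Fanca and Brip1 held in all 12 fits for each beam, and on raw TPM Fanca stayed below 0 (-0.39 and -0.35) while Brip1 after F-PRT was at 0.04. The abundance-weighted transcript length of Fanca averaged 2789 ± 100 bases in F-PRT bone, 2729 ± 311 in S-PRT bone and 2098 ± 227 in Untreated bone. Its log2 changes, 0.42 and 0.38, did not pass (limma adjusted p = 0.148 and 0.318). The part of length in the TPM values of Fanca was not tested.

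Fancd2 had 43.8, 34.7, 33.9 and 28.9 CPM in F-PRT bone, 33.7, 39.5, 44.4 and 25.6 CPM in S-PRT bone and 53.8, 55.2, 45.3 and 44.1 CPM in Untreated bone. Only S-PRT replicate 3 touched the Untreated range, and the log2 changes were -0.51 ± 0.16 (adjusted p = 0.0273) and -0.48 ± 0.16 (adjusted p = 0.04). Fancg, another core complex gene, had 15.6, 10.9, 12.7 and 12.4 CPM in F-PRT bone, 13.8, 14.7, 14.8 and 11.6 CPM in S-PRT bone and 16.4, 19.9, 17.5 and 14.4 CPM in Untreated bone. The irradiated and Untreated libraries overlap at 14.4 to 15.6 CPM, and the log2 changes were -0.43 ± 0.13 (adjusted p = 0.0252) and -0.33 ± 0.13 (adjusted p = 0.0802). Fanci averaged 21.6 ± 3.59 CPM after F-PRT and 29.5 ± 4.26 CPM in Untreated bone (log2 -0.47, adjusted p = 0.0437), and the core complex gene Fancc did not pass (-0.20 and -0.18). Of Fanci's exonic bases 16.0% lie within exons of Polg on the other strand.

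On raw TPM the changes of Fancd2 were 0.14 and 0.08 and that of Fancg after F-PRT was 0.14. These last calls rested on single libraries at the 0.05 threshold. After F-PRT, Fancd2 was lost without F-PRT 2, 3 or 4 or Untreated 1 or 2 (adjusted p up to 0.0866), and Fancg without F-PRT 2, 3 or 4 or Untreated 2 or 3 (0.0534 to 0.088). Fanci was lost in 9 of 12 fits, being kept without F-PRT 1, S-PRT 4 or Untreated 3 (0.0523 to 0.137 where lost). After S-PRT, Fancd2 missed it when S-PRT 1 or 4, F-PRT 2 or 3 or Untreated 1, 2 or 3 was left out (0.0505 to 0.105).

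Of the remaining 4 genes none passed. Polq had 47.7, 35.5, 35.4 and 32.2 CPM in F-PRT bone, 37.9, 48.7, 48.5 and 29.5 CPM in S-PRT bone and 56.3, 53.6, 39.2 and 41.8 CPM in Untreated bone, and the libraries overlap (log2 -0.36 and -0.23, adjusted p = 0.137 and 0.376). Parp1, whose product marks breaks with poly(ADP-ribose), had 69.6, 69.1, 63.1 and 70.4 CPM in F-PRT bone, 72.2, 59.1, 71.4 and 56.8 in S-PRT bone and 45.5, 69.1, 68.3 and 68.5 in Untreated bone. Apart from Untreated replicate 1 these lie close together (log2 0.09 and 0.03, adjusted p = 0.617 and 0.889). The base excision genes Xrcc1, a scaffold, and Ogg1, the oxidised guanine glycosylase, changed by -0.18 and -0.07 after F-PRT and by -0.12 and -0.42 after S-PRT without passing.

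Of a wider list of 65 other break repair and checkpoint genes, 26 fell and 1 rose after F-PRT (median log2 -0.30), beside 17.2% and 15.5% of all genes. After S-PRT 21 fell and 1 rose (median -0.27), beside 15.2% and 13.3% of all genes. Among the genes of smallest p was Polm, a polymerase of end joining (13.9 ± 1.24 CPM in F-PRT bone, 14.3 ± 1.34 in S-PRT bone and 24.9 ± 1.35 in Untreated bone, log2 -0.87 and -0.81). Also named by rank were the cell cycle phosphatase gene Cdc25a (-0.72 and -0.72), the helicase gene Recql5 (-0.53 and -0.32), Rad54b, a relative of Rad54l (-0.94 and -1.0), and Rmi2 of the Bloom helicase complex (-0.77 and -0.70). After F-PRT they included Rtel1, a helicase gene (-0.38), and H2afx, the histone variant phosphorylated around breaks (-0.80), and after S-PRT the clamp loader gene Rad17 (-0.32) and Wdr48 (-0.36). All had an edgeR adjusted p of at most 0.0116, but many lay above 0 on raw TPM: Recql5 (0.21 and 0.31), Rad17 (0.38) and Wdr48 (0.24) after S-PRT, and Cdc25a (0.01) and Rtel1 (0.02) after F-PRT. On TPM 32 of the 65 rose and 1 fell after F-PRT, beside 60.8% and 2.81% of all genes. There 26 rose and 1 fell after S-PRT, beside 55.8% and 2.85% of all genes. Without the libraries in doubt the calls after F-PRT were 7, all falls, which is near the 11.5% of all genes that fell in that fit. After S-PRT 16 fell and 1 rose, beside 15.1% and 14.8% of all genes. Leaving out 1 library gave 13 to 27 called after F-PRT and 10 to 22 after S-PRT.

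The RNA levels of other gene lists also moved in irradiated bone, on the TMM scale. Of the 30 mitosis genes 28 fell after F-PRT and 27 after S-PRT (median log2 -0.74 and -0.69), whereas on TPM none passed (median -0.04 and -0.09), with summed levels of 2520 to 4130 CPM in F-PRT bone, 2380 to 4200 CPM in S-PRT bone and 5170 to 6090 CPM in Untreated bone. Mki67, a marker of cycling cells, averaged 1420 ± 308 CPM, 1510 ± 370 CPM and 2450 ± 289 CPM in F-PRT, S-PRT and Untreated bone (log2 -0.82 and -0.72, adjusted p = 0.00682 and 0.016). All 10 granulocyte precursor genes fell after either beam (median -2.15), with summed levels of 390 to 487 CPM in F-PRT bone and 251 to 642 CPM in S-PRT bone and 549 to 2420 CPM in Untreated bone, and 9 of 10 mature neutrophil genes fell (median -4.92). B cell precursor genes fell for 7 and 8 of 10 and erythroid precursor genes for 4 and 4 of 9, whereas T and NK cell genes rose for 9 and 8 of 10, macrophage genes for 8 and 8 of 10 with 1 falling, endothelial genes for 6 and 6 of 10, and p53 targets for 17 and 16 of 25 with 2 falling. Suprabasal keratinocyte genes, which mark skin, summed to 3.42 to 170 CPM in F-PRT bone, with F-PRT 2 at 170 CPM, 5.97 to 27.8 CPM in S-PRT bone and 2.94 to 5.01 CPM in Untreated bone. The part of these lists in the results was not tested. A fit with the mean mitosis level as a covariate called 1 gene higher and none lower after F-PRT, which was not among the 13 called without it. After S-PRT it called 1 higher and 1 lower, both among the 11 called without it. That gene after F-PRT was Nbn (log2 0.64, adjusted p = 0.0482), and after S-PRT they were Xrcc5 (0.49, adjusted p = 0.0402) and Lig4 (-1.04, adjusted p = 0.0237). In those fits 2.09% of all genes were higher and 3.7% lower after F-PRT, and 1.63% and 3.68% after S-PRT. Mean mitosis levels ran from 5.52 to 6.2 log2 CPM in F-PRT bone, 5.41 to 6.17 in S-PRT bone and 6.52 to 6.71 in Untreated bone. Irradiated and Untreated libraries did not overlap there, so the fit cannot separate the mitosis level from irradiation.

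**Figure D4:**
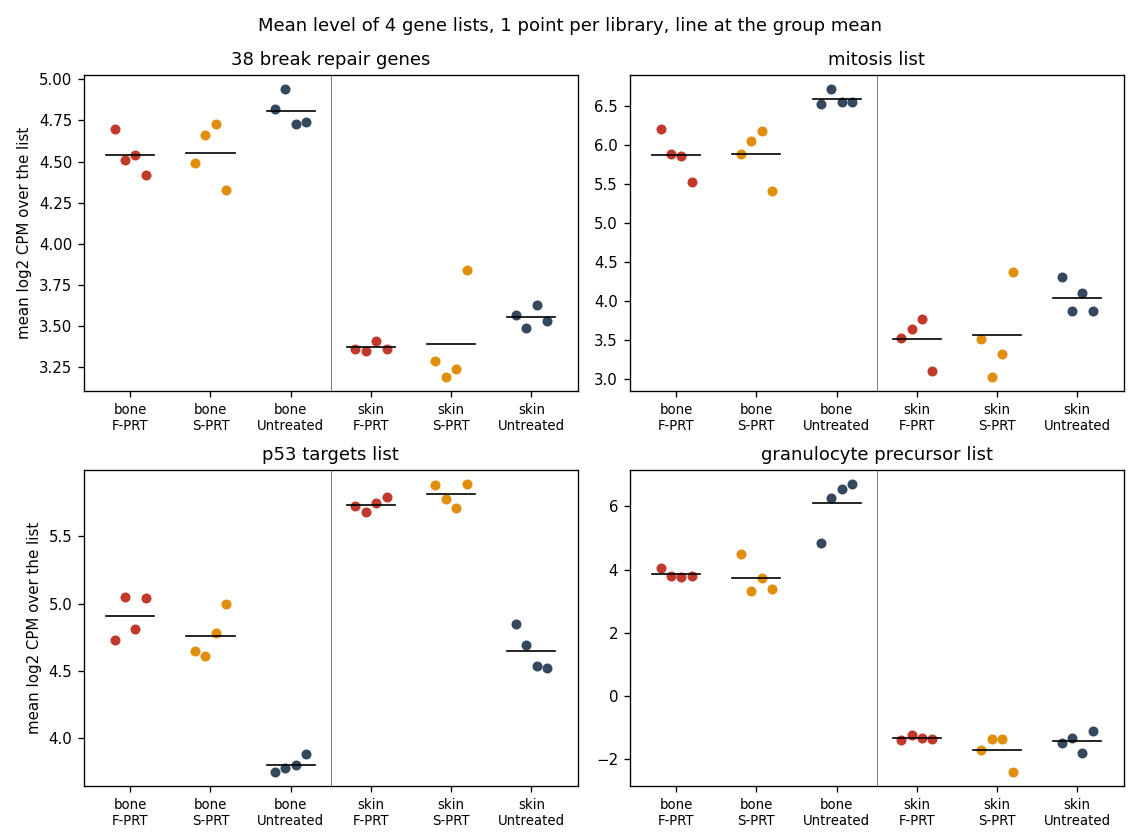
Mean log2 CPM per library over the 38 break repair genes, the 30 mitosis genes, the 25 p53 targets and the 10 granulocyte precursor genes, in the 6 groups. On the TMM scale the break repair mean in bone was 4.42 to 4.70 after F-PRT, 4.33 to 4.73 after S-PRT and 4.73 to 4.94 in Untreated libraries. It moved down there, as did the mitosis and granulocyte precursor lists, while the p53 targets moved up. In skin the break repair mean was 3.35 to 3.41, 3.19 to 3.84 and 3.49 to 3.63. On TPM the median change of the 38 genes in bone was 0.42 and 0.39, beside 0.69 and 0.62 for all genes.

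Between F-PRT and S-PRT bone no break repair gene passed the test. None of the 38 was called by edgeR, by DESeq2 or by limma with voom quality weights, and none had an unadjusted p under 0.05, where 0.00531% of all genes were called higher and 0.0% lower. The log2 differences, F-PRT over S-PRT, ran from -0.23 to 0.34, and their 95% intervals together spanned -0.73 to 0.78. The 5 genes of smallest p were Rad51c (0.26, 95% interval -0.06 to 0.57), Ogg1 (0.34, -0.09 to 0.78), Rad52 (-0.15, -0.34 to 0.04), Xrcc3 (-0.23, -0.54 to 0.09) and Xrcc6 (-0.22, -0.55 to 0.12), all with an adjusted p of 1.0. For Lig4 the difference was 0.16 (-0.15 to 0.46). The intervals leave room for differences of up to 0.78 on the log2 scale in single genes, and a missed threshold does not show that the beams act alike.

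In skin few break repair genes passed the test. After F-PRT none of 38 was called against Untreated skin by edgeR, where 1.0% of all genes rose and 1.39% fell. At an unadjusted p under 0.05 there were 3, DESeq2 called 1 lower, beside 2.96% of all genes, and limma with voom quality weights called 1 higher and 5 lower, beside 6.9% and 6.88% of all genes. The median log2 change of the 38 was -0.23, beside -0.02 for all genes. After S-PRT 1 of 38 fell and none rose, where 2.52% of all genes fell and 1.83% rose, and the median was -0.13 beside 0.0. The sign of these medians depended on the scale. On TPM they were 0.05 after F-PRT and 0.15 after S-PRT, beside 0.24 and 0.26 for all genes, and none of the 38 passed.

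The gene that fell was Xrcc3, whose product acts in homologous recombination. Xrcc3 had 11.4, 10.9, 9.96 and 11.0 CPM in F-PRT skin, 9.29, 9.43, 8.8 and 9.53 CPM in S-PRT skin and 17.4, 14.3, 13.6 and 13.0 CPM in Untreated skin. All irradiated libraries lay under all Untreated ones, and the log2 change was -0.65 ± 0.12 after S-PRT (adjusted p = 0.00992) and -0.43 ± 0.12 after F-PRT (adjusted p = 0.101). The S-PRT call held in all 12 fits without 1 library, though a fit of the 8 S-PRT and Untreated libraries alone called none of the 38. The F-PRT value passed without S-PRT 4 (adjusted p = 0.0465).

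The other genes of smallest p did not pass with all libraries. Fancg had 13.8, 14.2, 12.9 and 14.9 CPM in F-PRT skin, 14.2, 14.8, 15.3 and 15.5 CPM in S-PRT skin and 14.5, 8.25, 10.2 and 10.4 CPM in Untreated skin. Untreated replicate 1 lay among the irradiated libraries and the other 3 below them, with log2 changes of 0.36 (adjusted p = 0.301) and 0.47 (adjusted p = 0.126). Without Untreated 1 both passed (0.0479 after F-PRT and 0.0134 after S-PRT). Xrcc6 had a change of -0.45 after F-PRT (adjusted p = 0.182), Exo1, the resection nuclease gene, -0.66 (0.367) and Xrcc5 -0.46 (0.377). After S-PRT Fancd2 changed by -0.69 (0.186), Bard1 by -0.67 (0.242) and Nhej1 by -0.78 (0.299).

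Much of the S-PRT skin result turned on replicate 4. Chek1 had 2.24, 2.98, 3.0 and 7.06 CPM in the 4 S-PRT skin libraries, 4.16, 3.69, 3.87 and 4.16 CPM in F-PRT skin and 4.44, 5.42, 6.05 and 7.33 CPM in Untreated skin. The 7.06 CPM of S-PRT replicate 4 lay within the Untreated range and the rest of the irradiated libraries below it (log2 -0.55 after F-PRT and -0.60 after S-PRT, adjusted p = 0.466 and 0.39). Without that library 8 of 38 fell after S-PRT and none rose, where 5.23% of all genes fell and 6.47% rose. Among them were Chek1 (adjusted p = 0.00812), Bard1 (0.00727), Fancd2 (0.0144), Nbn (0.0149) and Brca1 (0.0217), and Exo1 (0.0366) and Blm (0.0472) joined Xrcc3. The other genes looked up in every comparison did not pass with all libraries: Atm -0.12 and 0.09, Brca1 -0.38 and -0.46, Prkdc -0.11 and 0.19, Fancd2 -0.29 after F-PRT, Parp1 -0.16 and 0.30, and Polq -0.61 and -0.35.

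Without the libraries in doubt, skin showed 1 gene higher and 3 lower after F-PRT and 1 higher and 12 lower after S-PRT. In that fit 8.2% of all genes rose and 5.84% fell after F-PRT, and 13.0% rose and 10.5% fell after S-PRT. Fancg rose in each, by 0.62 after S-PRT, and Xrcc3, Chek1 and Atr fell in each. After S-PRT the falls also took in Bard1, Brca1, Nbn, Rad54l, Blm, Fancd2, Polq, Atm and Exo1, with Chek1 at -1.19 and Bard1 at -0.93. There the mitosis list had 7 of 30 genes that fell after F-PRT and 15 after S-PRT, and the 30 replication genes 6 and 16. The mitosis list summed to 973 CPM in S-PRT replicate 4 and 345 to 492 CPM in the other S-PRT skin libraries, and its part in the result was not tested. The 11 hair follicle genes summed to 33.2 to 67.8 CPM in F-PRT skin, 37.0 to 1250 in S-PRT skin and 36.3 to 78.5 in Untreated skin. The 10 skeletal muscle genes summed to 289 to 4570, 393 to 14300 and 10.1 to 3480 CPM. With all libraries 1 hair follicle gene rose after S-PRT and no skeletal muscle gene passed. The part of these lists was not tested either.

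**Figure D5:**
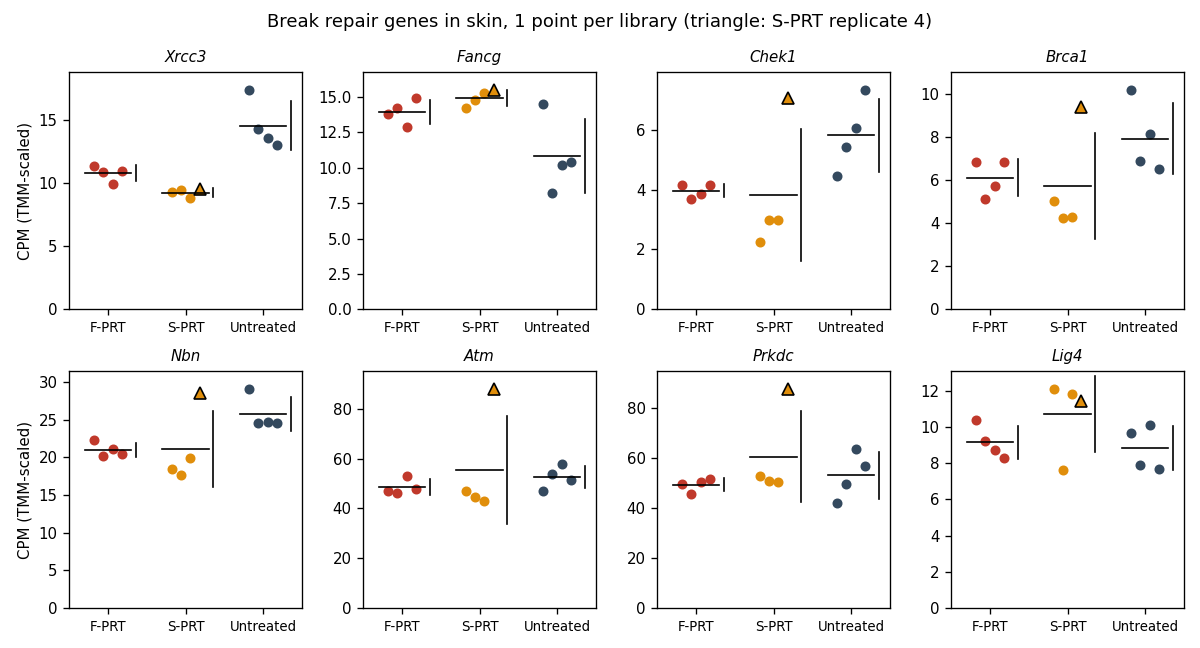
CPM (TMM-scaled) of 8 genes in skin, 1 point per library with mean and SD, for F-PRT, S-PRT and Untreated; the triangle is S-PRT replicate 4. Xrcc3 is lower in all 8 irradiated libraries (8.8 to 11.4 CPM) than in all 4 Untreated ones (13.0 to 17.4 CPM), and the triangle stands above the other S-PRT points by a wide gap for Chek1, Brca1, Nbn, Atm and Prkdc.

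Of the wider list of 65 genes 1 fell and none rose in skin after each beam, by edgeR, beside 1.39% and 2.52% of all genes that fell. It was H2afx, at 20.9 ± 3.69 CPM in F-PRT skin, 23.6 ± 5.69 CPM in S-PRT skin and 45.4 ± 12.2 CPM in Untreated skin (log2 -1.12 and -0.93, adjusted p = 0.0151 and 0.0266). The F-PRT call was lost without F-PRT 3 or F-PRT 4 (0.0644 to 0.0694) and the S-PRT call without S-PRT 1, 2 or 3 or Untreated 2 (0.0707 to 0.0777). The p53 targets rose for 18 of 25 genes after F-PRT and 20 of 25 after S-PRT in the same libraries. Cdkn1a in skin rose by 0.90 and 0.89 on the log2 scale (adjusted p = 0.0377 and 0.0277), calls that were lost in 10 and 7 of 12 fits without 1 library.

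F-PRT and S-PRT skin also gave no call. None of the 38 passed by edgeR, DESeq2 or limma with voom quality weights, and none had an unadjusted p under 0.05, where 0.0% of all genes were called in either direction. The log2 differences, F-PRT over S-PRT, ran from -0.45 to 0.49 with 95% intervals between -1.01 and 1.28. Parp1 had the smallest p (-0.45, 95% interval -0.93 to 0.02), followed by Mdc1 (-0.33, -0.72 to 0.06), Xrcc3 (0.22, -0.05 to 0.49), Prkdc (-0.30, -0.72 to 0.12) and Fancd2 (0.40, -0.17 to 0.97), all with an adjusted p of 0.999.

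Whether the genes changed differently in bone and in skin was tested on the difference of the changes, bone minus skin, over the 24 libraries. For F-PRT 1 of 38 genes was higher and 2 were lower, where 5.99% of all genes were higher and 4.66% lower. For S-PRT none was higher by edgeR and 2 were lower, where 4.49% and 4.96% of all genes were called (9.45% in all). At an unadjusted p under 0.05 there were 5 and 6 genes in either direction, and DESeq2 likewise called none higher for S-PRT. Lig4 fell in bone and had changes of 0.05 and 0.28 in skin, and the differences were -0.70 ± 0.22 for F-PRT (adjusted p = 0.0444) and -1.10 ± 0.22 for S-PRT (adjusted p = 0.00234). In the fits within a tissue Fancg had changes of -0.43 and -0.33 in bone and 0.36 and 0.47 in skin, and the differences were -0.76 ± 0.21 (adjusted p = 0.0192) and -0.78 ± 0.21 (adjusted p = 0.0181). Xrcc5 had changes of 0.31 and 0.39 in bone and -0.46 and -0.16 in skin, with differences of 0.79 ± 0.24 for F-PRT (adjusted p = 0.0395) and 0.57 ± 0.24 for S-PRT (adjusted p = 0.156). On TPM the 3 differences for F-PRT and the 2 for S-PRT kept their sign, but those of Lig4 and Fancg did not pass. For Lig4 they were -0.31 and -0.67 (limma adjusted p = 0.629 and 0.324) and for Fancg -0.47 and -0.44 (0.271 and 0.361). Xrcc5 passed on TPM for both beams (1.23 and 0.96, adjusted p = 0.0106 and 0.0499).

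The S-PRT differences of Lig4 and Fancg held in all 24 fits without 1 library. For F-PRT, Fancg was lost without bone Untreated 2 (adjusted p = 0.0518), Xrcc5 in 15 of 24 fits (0.0507 to 0.098) and Lig4 in 17 of 24 (0.0511 to 0.102). The count of 3 for F-PRT ranged from 0, without bone Untreated 2, to 5, without skin S-PRT 4.

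RSEM's abundance-weighted transcript length, which moves where the mix of isoforms moves, gave no call among the 38 genes after irradiation. Genes with a mean expected count of at least 100 and a length that varied were tested by limma, 32 of the 38 in bone and 24 in skin. None passed in any of the 4 comparisons with Untreated tissue, where 0.0685% of all genes lengthened and 0.0196% shortened in F-PRT bone, 0.0196% and 0.00979% in S-PRT bone (0.0294% in either direction), and 0.0% in skin. At an unadjusted p under 0.05 there were 4 in F-PRT bone, 1 in S-PRT bone and 0 in skin, and no other tool was run on length. Between Untreated bone and Untreated skin, where 3.28% of all genes were longer in bone and 4.0% shorter (7.29% in all), 1 of 32 was longer and 1 shorter. Palb2 had a mean length of 3099 ± 110 bases in Untreated bone and 2197 ± 260 bases in Untreated skin (log2 0.50, limma adjusted p = 0.0237). Xrcc2, a recombination gene, had 2667 ± 273 bases in bone and 3088 ± 34.7 bases in skin (log2 -0.22, adjusted p = 0.0342). The Palb2 call was lost without skin Untreated 1 or 3 or bone Untreated 1 or 2 (0.0515 to 0.0743), and the Xrcc2 call without any 1 of the 4 skin Untreated libraries or bone Untreated 1 or 2 (0.0564 to 0.115).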

How the data were processed

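PolyA-selected RNA from mouse skin and bone was sequenced on an Illumina HiSeq instrument as 2 x 150 base reads, per the labels. The submitters' processing notes list cutadapt, FastQC, RSEM and STAR, with GRCm38 as the build; tool versions, annotation release and library strand: not given in the sources used here. In the deposited files each gene has RSEM expected counts, TPM and FPKM, per the file headers, together with effective and abundance-weighted transcript lengths in bases, deposited as other values. FPKM from the deposited files was not used. GENCODE M21 named 55230 of 55471 identifiers.

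The authors' expected counts were rounded to whole numbers, filtered with filterByExpr and scaled by TMM. They were tested with edgeR 4.0.16 (glmQLFit, glmQLFTest; R 4.3.3) and Benjamini-Hochberg adjustment over all genes at 0.05. The 12 libraries of a tissue shared 1 fit; tissue differences used all 24. Transcript length was tested with limma 3.58.1 on the log2 scale, with trend and robust settings, for genes with a mean count of at least 100. TPM, as the authors deposited it, served for levels between genes and, as log2(TPM + 0.1) in limma, for 1 alternative. The script was tested on simulated counts.

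Groups came from the labels. Same-numbered libraries were not paired: the correlation of their deviations had a median of 0.032 over 24 pairs within a tissue, over 0.1 in 10. Whether skin and bone libraries of the same treatment and number came from 1 mouse is not in the labels. The fits over 24 libraries treated them as independent. Alternatives were DESeq2 1.42.0, RLE, no filter, voom with quality weights, a replicate block, a mitosis covariate, the 8 compared libraries alone, and leaving out libraries. The members and gene lists were chosen with earlier results of these data known. Values per library are given for genes past the test (at most 12 of smallest p, or the 5 of smallest p where fewer than 5 passed) and for Atm, Chek1, Brca1, Prkdc, Fancd2, Parp1 and Polq, with the rest as ranges; Fanci, Xrcc4 and others beyond that rule were named after their values were seen. At most 8 genes of the wider repair list were to be named per comparison; 1 result is not reported here.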

Additional observations from a re-analysis of the deposited data

Results flagged for a closer look

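Of 240 groups of 4 libraries looked at, 19 held a library far from the other 3 by Dixon's test at the 95% level, where chance gives about 1 in 20. Of these, 9 were the high value of skin S-PRT replicate 4: Atm 88.0 CPM, Atr 57.5, Chek1 7.06, Trp53bp1 90.4, Mdc1 78.5, Brca1 9.41, Xrcc5 42.8, Prkdc 87.5 and Fanci 6.47 CPM. In skin Untreated replicate 1 the high values were Mdc1 54.7 CPM, Nbn 29.1 CPM and Cdkn1a 294 CPM. In skin Untreated replicate 3 Xrcc4 was high at 5.93 CPM, and in skin S-PRT replicate 2 Lig4 was low at 7.62 CPM. In bone Xrcc2 was high in F-PRT replicate 1 (16.7 CPM) and low in S-PRT replicate 4 (11.9 CPM), Exo1 was high in Untreated replicate 2 (29.3 CPM), Parp1 was low in Untreated replicate 1 (45.5 CPM) and Ogg1 was low in Untreated replicate 3 (4.53 CPM).

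By edgeR's test of the difference between bone and skin, 3 of the 38 genes were called for F-PRT (7.89%) and 2 for S-PRT (5.26%). These shares are under those of all genes, 10.7% and 9.45%. The F-PRT calls of Xrcc5 and Lig4 were lost in 15 and 17 of 24 fits without 1 library. Values are bone minus skin on the log2 scale. For F-PRT the differences were 0.79 for Xrcc5, -0.70 for Lig4 and -0.76 for Fancg. For S-PRT they were -1.10 for Lig4 and -0.78 for Fancg.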

How the results depend on the processing

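Counts are of the 38 genes called in either direction. For F-PRT against Untreated skin (0 called), DESeq2 called 1, voom 6 and the fit without the libraries in doubt 4. For S-PRT against Untreated skin (1), voom called 11, the mitosis covariate 2, the fit without the libraries in doubt 13, the 8 compared libraries alone 0, total count scaling 2 and TPM 0. For F-PRT against Untreated bone (13), no filter gave 7, the covariate 1, the fit without the libraries in doubt 6, total counts 5 and TPM 16, all higher. For S-PRT against Untreated bone (11), no filter gave 4, voom 7, the covariate 2, the fit without the libraries in doubt 6, the 8 libraries 6, total counts 4 and TPM 15, all higher. For the F-PRT difference between tissues (3), no filter gave 0, the covariate 6 and TPM 1; for S-PRT (2), no filter gave 1, voom 4, the covariate 5, the fit without the libraries in doubt 4, total counts 4 and TPM 1. For Untreated bone against skin (31) the covariate gave 10. Leaving out 1 library gave 0 to 1 and 1 to 8 in skin, 6 to 16 and 4 to 13 in bone, 0 between the beams, 0 to 5 and 2 to 3 for the differences, 27 to 32 for Untreated tissues, and for length 0 after irradiation and 0 to 2 between Untreated tissues (2). The total count and TPM settings were chosen after seeing the data. Within a tissue and across treatments, the best match of a library had its own number in 5 of 24. That search did not cover skin and bone libraries of the same treatment and number, which could come from 1 mouse. The replicate block called 13, 9, 0 and 1 in bone and skin after F-PRT and S-PRT, 2 and 2 differences, 31 between Untreated tissues and 1 for length. Signs turned with the mitosis covariate after F-PRT for Brip1 (0.01), Brca1 (0.15), Fancd2 (0.20), Chek2 (0.05), Brca2 (0.21) and Mki67 (0.02) and after S-PRT for Brca1 (0.17), Fancd2 (0.19), Brca2 (0.16) and Mki67 (0.08). They turned on TPM after F-PRT for Rad52 (0.20), Brip1 (0.04), Brca1 (0.15), Fancg (0.14), Fancd2 (0.14), Chek2 (0.31), Brca2 (0.27), Prkdc (0.58), Cdc25a (0.01), Recql5 (0.21) and Rtel1 (0.02). After S-PRT they turned for Rad52 (0.28), Brca1 (0.17), Fancd2 (0.08), Xrcc6 (0.09), Rad51c (0.21), Brca2 (0.10), Prkdc (0.58), Recql5 (0.31), Rad17 (0.38) and Wdr48 (0.24), and the Recql5 F-PRT difference between tissues was 0.03. Without the libraries in doubt Atm in S-PRT skin was -0.28. On TPM the median of all genes in bone was 0.69 higher after F-PRT and 0.62 higher after S-PRT. The causes of the turns in any of these settings were not tested.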
